A study of Homo sapiens with 28 samples.

Results

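The AP-1 family of transcription factors was followed as 10 genes, FOS, FOSB, FOSL1, FOSL2, JUN, JUNB, JUND, BATF3, ATF3 and MAFF, out of 26346 gene symbols counted in every library. The genes were listed by family name, with earlier results of these data known. Of the 10, 9 were among the 14220 genes that passed the filter on low counts. BATF3 held 0 to 7 reads per library and was not tested. AP-1 factors are basic leucine zipper proteins that bind DNA as dimers: the FOS proteins need a JUN partner, whereas the JUN proteins pair with each other as well as with FOS and ATF proteins. Several of the genes are induced within minutes by serum, growth factors or stress, and AP-1 sites are frequent in enhancers that the BAF chromatin remodellers open. ATF3 is a stress-induced member of the ATF branch, BATF3 is best known from dendritic and T cells, and MAFF is a small MAF protein that lacks a transactivation domain.

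The libraries measured polyadenylated RNA of AN3CA, an established human endometrial carcinoma line, grown in EMEM with 15% fetal bovine serum and no treatment. For ARID1A there were 2 truncations (CBR and delIDR1), a mutant of the ARID domain (DBDmut), a hybrid carrying the disordered region of DDX4, an AQG scramble (AQGscram), a mutant named 42YS, whose name the labels spell in more than one way, and wild type (WT). For ARID1B there were the deletion mutant M2 (S320_G327del), the deletions A457_G461del, Block13del and Block9del, and WT. Each of the 12 constructs had 2 libraries and the empty vector had 4, which gave 28 libraries in 13 groups. ARID1A and ARID1B are mutually exclusive subunits of the canonical BAF remodeller, and the labels give neither the vector, nor its promoter, nor whether a line is 1 clone. They also do not say whether replicates were separate cultures, and p-values therefore cover the spread between libraries, some or all of which may be technical.

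The libraries fell into 3 sets by the share of stranded gene reads on the strand opposite the gene, and they are compared within these sets. Set 1 had 84.5 to 87.8% (ARID1A CBR, delIDR1, DBDmut and WT with empty vector replicates 1 and 2), set 2 had 98.1 to 98.6% (the DDX4 hybrid, ARID1B M2 and WT with empty vector replicates 3 and 4), and set 3 had 96.7 to 97.9% (AQGscram, 42YS, A457_G461del, Block13del and Block9del, with no empty vector). Each library held between 16.6 and 27.9 M gene reads. Levels are counts per M reads on genes (CPM) after TMM scaling, folds are log2 with a standard error, and a gene was called at an adjusted p under 0.05 over all 14220 genes. Shares of all genes called count both directions unless a direction is named. The constructs of 1 set share its empty vector pair, so their comparisons with it are not independent. RNA of the construct's own gene was raised in the first 2 sets: ARID1A averaged 733 ± 43.8 CPM in ARID1A WT and 284 ± 17.1 CPM in its empty vector pair, and ARID1B averaged 3597 ± 225 CPM in ARID1B WT and 94.5 ± 8.38 CPM in its pair (SD, n = 2 each). Of the markers of the labelled tissue, KRT18, HOXA10, HOXA11 and MSX1 were present in every library (lowest value 4.44 CPM), while PAX8, SOX17, FOXA2, ESR1 and PGR never passed 0.234 CPM. The others listed were low, with medians over the libraries of 1.11 CPM for KRT8, 0.764 for EMX2, 0.298 for EPCAM, 0.0915 for CDH1 and 0.0512 for KRT19. Markers of blood cells and endothelium never passed 0.459 CPM.

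The promoters of JUN and FOSL2 are shown whole because these members were higher with both wild types, and 3 windows of 30 bases show the elements found in other members. The sequences are from RefSeq on GRCh38.p14, another build than the hg19 named for the counts, and each runs 5′ to 3′ on the gene's strand. Both whole promoters end at the base before the annotated start, and the windows end further upstream. Capitals mark TGACATCA in JUN and ATF3, the octamer known from the human JUN promoter as an AP-1-like site, and TGACGTCA in JUND and MAFF, the CRE octamer that ATF-containing dimers bind.
JUN promoter, chr1:58784048-58784297, minus strand: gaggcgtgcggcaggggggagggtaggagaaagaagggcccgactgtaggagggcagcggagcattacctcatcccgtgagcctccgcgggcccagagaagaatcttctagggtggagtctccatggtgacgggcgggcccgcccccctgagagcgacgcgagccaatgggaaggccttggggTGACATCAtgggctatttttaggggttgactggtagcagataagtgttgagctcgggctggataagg
FOSL2 promoter, chr2:28392608-28392857, plus strand: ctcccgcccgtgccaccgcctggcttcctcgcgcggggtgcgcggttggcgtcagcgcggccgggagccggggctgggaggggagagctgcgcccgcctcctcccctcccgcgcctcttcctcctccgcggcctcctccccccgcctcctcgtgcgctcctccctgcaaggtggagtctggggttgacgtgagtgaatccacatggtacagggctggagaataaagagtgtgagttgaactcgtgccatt
ATF3 window, chr1:212565273-212565302, plus strand: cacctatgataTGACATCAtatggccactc
JUND window, chr19:18281804-18281833, minus strand: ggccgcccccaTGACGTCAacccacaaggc
MAFF window, chr22:38201929-38201958, plus strand: ggccgggtcggTGACGTCAccgcatgactg

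The JUN octamer lay 67 to 60 bases before the start, the ATF3 octamer 123 to 116, the JUND octamer 200 to 193 and the MAFF octamer 54 to 47. Of the 10 members 8 had promoters in the RefSeq table, with 10 promoters in all, and FOSL1 and BATF3 had none there. Both strands of the 250 bases before each start were searched for TGACTCA, TGACGTCA and TGACATCA, motifs chosen after values of the members were known. Of 35116 promoters searched, 4.203% held TGACTCA, 1.646% held TGACGTCA and 2.375% held TGACATCA. TGACTCA, the classical AP-1 element, was in none of the 10 member promoters, and FOS, FOSB, FOSL2 and JUNB held none of the 3 motifs in this window. ATF3 and MAFF each also had another promoter, which held none of the 3. A match is a string of letters and not evidence of binding.

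JUND, whose product is the most stably expressed JUN protein in many cells, gave most of the JUN-gene RNA in all groups. Scaled by merged exon length (GENCODE 29, matched by symbol), JUND made up 69.1% of the summed level of JUN, JUNB and JUND in ARID1A WT and 68.5% in its empty vector pair, and 79.5% in ARID1B WT and 80.8% in its pair. The share of JUN itself was 19.4% in ARID1A WT and 9.80% in its empty vector pair, and 10.5% in ARID1B WT and 3.94% in its pair. Among the FOS genes, FOSL2 made up 56.3% in ARID1A WT and 37.1% in its pair, and 59.5% in ARID1B WT and 39.4% in its pair. FOSL1 was the leading FOS gene per length in both empty vector pairs (38.7% in replicates 1 and 2, 49.0% in replicates 3 and 4), and FOSL2 led with both wild types. FOSB stayed at 0.981 to 2.79 CPM in all 28 libraries and therefore has wide errors.

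**Figure D1:**
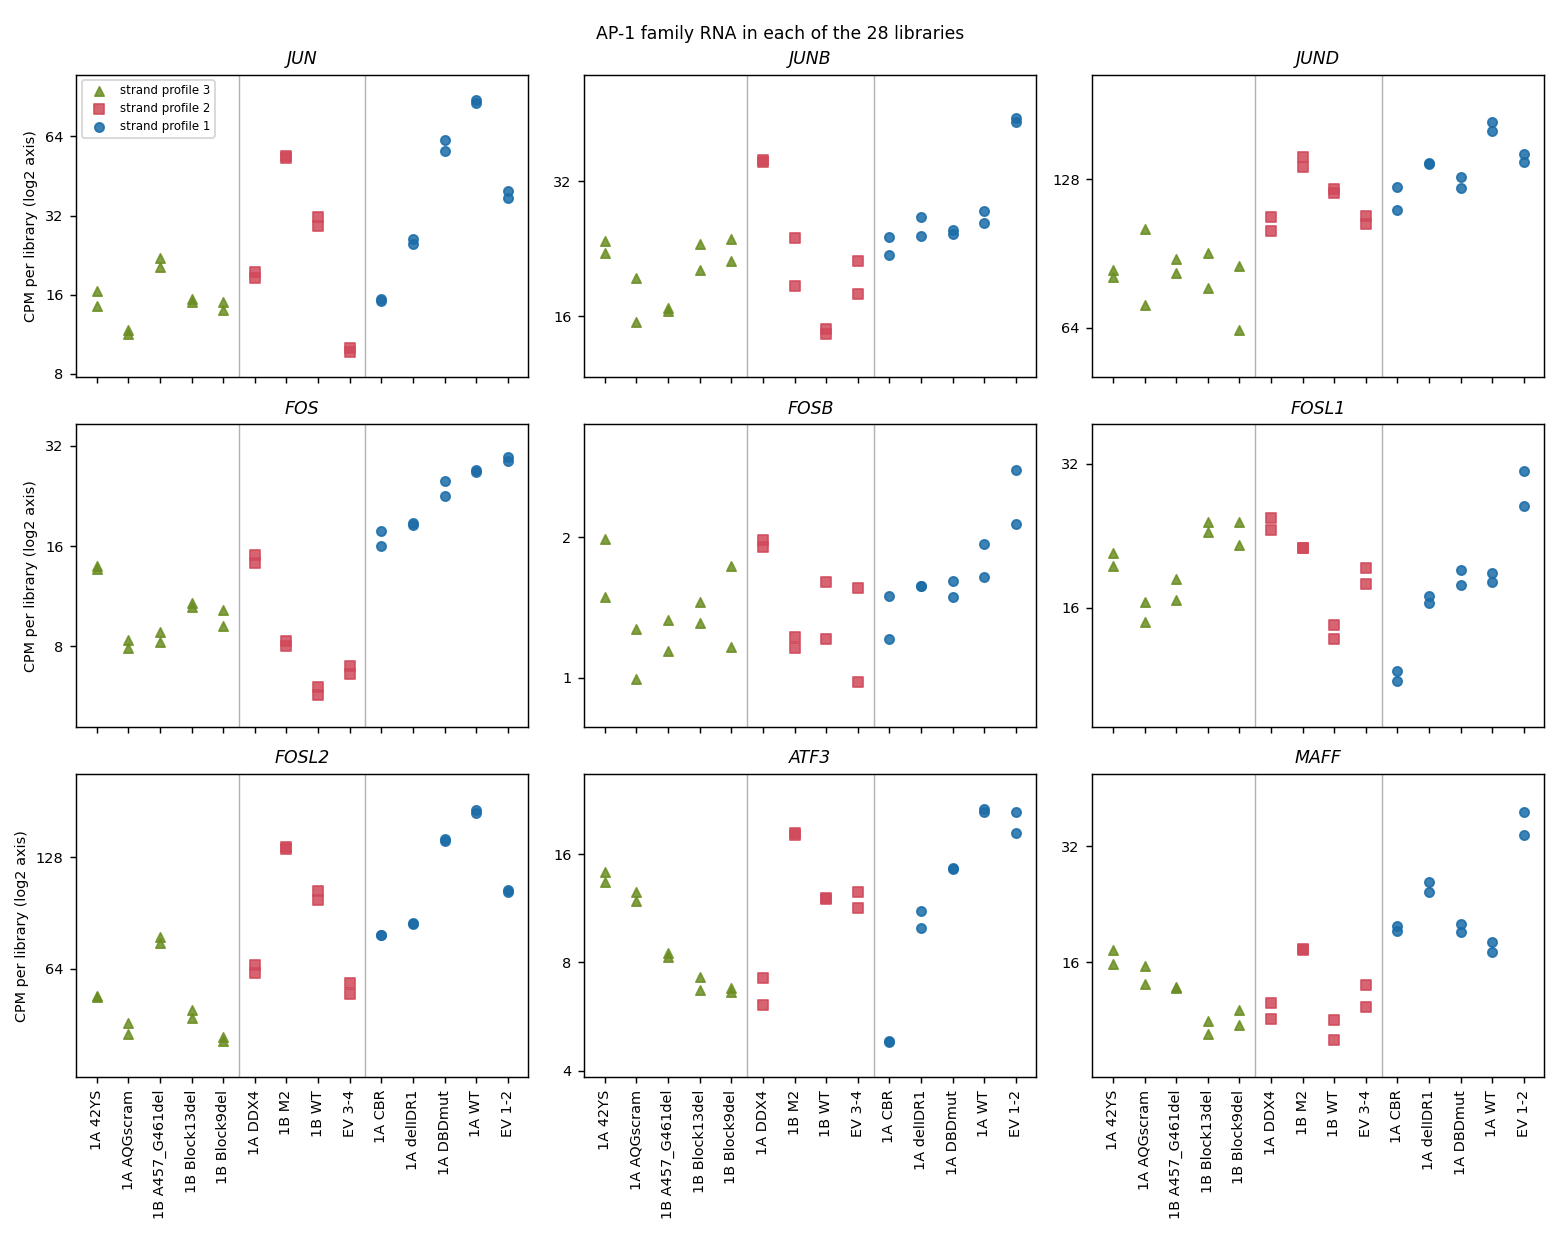
Level of each of the 9 tested members in each library (CPM, log2 axis), by group, with constructs left of the empty vector (EV) pair of their strand set and vertical lines between sets. JUN and FOSL2 run highest in ARID1A WT, DBDmut and ARID1B M2, and all 9 members are lower in EV 3-4 than in EV 1-2.

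With ARID1A WT, JUN and FOSL2 were higher than in the empty vector, and FOSL1, JUNB and MAFF were lower. That is 5 of 9 tested members called, beside 60.7% of all genes tested in this comparison. JUN, a strong activator, had 88.1 and 86.1 CPM in ARID1A WT, against 39.6 and 37.3 CPM in empty vector replicates 1 and 2. Its log2 fold change was 1.18 ± 0.06 (adjusted p = 5.06e-15), larger in size than that of 87.8% of the genes tested. JUNB, which can replace or oppose JUN depending on the promoter, had 25.8 and 27.5 CPM in ARID1A WT, against 43.3 and 44.3 CPM in the empty vector. The groups did not overlap for either gene, and JUNB fell by 0.72 ± 0.10 on the log2 scale (adjusted p = 4.21e-07). With 2 libraries in each group, lack of overlap is a description only, here and below. Its share over all genes was not counted. JUND had 160 and 167 CPM in ARID1A WT, against 139 and 144 CPM in the empty vector, and was not called (log2 fold change 0.21, 95% interval 0.00 to 0.43, adjusted p = 0.0916). In bulk RNA, a change in the number of cells that carry an RNA and a change in RNA per cell cannot be told apart.

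Among the FOS genes, FOSL2 (FRA-2), a FOS protein without the strong transactivation domain of FOS, had 169 and 171 CPM in ARID1A WT, against 104 and 103 CPM in the empty vector (log2 fold change 0.71 ± 0.05, adjusted p = 8.03e-13). FOSL1 (FRA-1), its close relative and a frequent partner in invasive carcinoma cells, had 18.1 and 18.9 CPM in ARID1A WT, against 26.2 and 31.0 CPM in the empty vector (log2 fold change -0.63 ± 0.08, adjusted p = 3.60e-07). The related genes thus changed in opposite directions, each without overlap between the groups. FOS itself had 26.6 and 27.0 CPM in ARID1A WT, against 28.7 and 29.7 CPM in the empty vector, and was not called (log2 fold change -0.12, 95% interval -0.25 to 0.01, adjusted p = 0.115). FOSB had 1.93 and 1.64 CPM in ARID1A WT, against 2.13 and 2.79 CPM in the empty vector (log2 fold change -0.47 ± 0.22, adjusted p = 0.0685), and passed when empty vector replicate 1 was left out (-0.65, adjusted p = 0.0332).

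Of the ATF and MAF members, MAFF fell and ATF3 was not called. MAFF had 18.03 and 17.1 CPM in ARID1A WT, against 39.4 and 34.2 CPM in the empty vector, a log2 fold change of -1.07 ± 0.08 (adjusted p = 1.51e-11). ATF3 had 21.4 and 21.0 CPM in ARID1A WT, against 18.3 and 21.0 CPM in the empty vector, so the groups overlapped (log2 fold change 0.11, 95% interval -0.05 to 0.26, adjusted p = 0.250). Against all 4 empty vector libraries the JUN and FOSL2 rises were 1.83 and 1.08 and were called, while FOSL1, JUNB and MAFF were not called (adjusted p = 0.0535, 0.422 and 0.173). With that control FOS had the opposite sign (0.55, adjusted p = 0.255) and JUND and ATF3 were called higher.

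With ARID1B WT, set against the other empty vector pair, JUN and FOSL2 were higher and FOSL1, JUNB and MAFF lower, 5 of 9 members beside 52.0% of all genes. JUN had 29.2 and 31.7 CPM in ARID1B WT, against 9.68 and 9.98 CPM in empty vector replicates 3 and 4 (log2 fold change 1.63 ± 0.09, adjusted p = 1.33e-14). FOSL2 had 98.1 and 104 CPM in ARID1B WT, against 58.8 and 54.9 CPM in the empty vector (log2 fold change 0.83 ± 0.05, adjusted p = 3.83e-13). FOSL1 had 14.7 and 13.8 CPM in ARID1B WT, against 19.4 and 17.9 CPM in the empty vector (log2 fold change -0.39 ± 0.10, adjusted p = 0.00133). None of these 3 genes had overlapping groups. JUNB had 14.6 and 15.0 CPM in ARID1B WT, against 21.3 and 17.9 CPM in the empty vector (log2 fold change -0.40 ± 0.12, adjusted p = 0.00687), and lost its call without empty vector replicate 3 (-0.28, adjusted p = 0.121). MAFF had 10.05 and 11.3 CPM in ARID1B WT, against 12.2 and 13.99 CPM in the empty vector (log2 fold change -0.29 ± 0.11, adjusted p = 0.0218). Its call was lost without ARID1B WT replicate 1 (-0.22) or without empty vector replicate 4 (-0.19), and by DESeq2 (adjusted p = 0.0839).

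The other 4 tested members were not called with ARID1B WT. FOS had 5.71 and 6.04 CPM in ARID1B WT, against 6.61 and 6.97 CPM in the empty vector (log2 fold change -0.21, 95% interval -0.43 to 0.02, adjusted p = 0.192). JUND had 120 and 122 CPM in ARID1B WT, against 108 and 104 CPM in the empty vector (0.19, 95% interval -0.03 to 0.41, adjusted p = 0.159), and was called without the filter on low counts (adjusted p = 0.00207) and in a fit of only these groups. FOSB (0.14, 95% interval -0.42 to 0.69, adjusted p = 0.726) and ATF3 (0.01, 95% interval -0.18 to 0.20, adjusted p = 0.946) had intervals on both sides of 0. Against all 4 empty vector libraries the rises of JUN (0.31, adjusted p = 0.512) and FOSL2 (0.33, adjusted p = 0.136) were not called, and FOS (-1.64, adjusted p = 0.00643), MAFF (-1.24), JUNB (-1.11) and FOSL1 (-0.74) were called lower. Those libraries differ among themselves, as described further on. The 5 members called with ARID1A WT and the 5 called with ARID1B WT were the same genes in the same directions, although the comparisons use different control libraries. Over all genes, 4227 were called in the same direction in both, 49.0% of the genes called with ARID1A WT and 57.1% of those called with ARID1B WT.

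**Figure D2:**
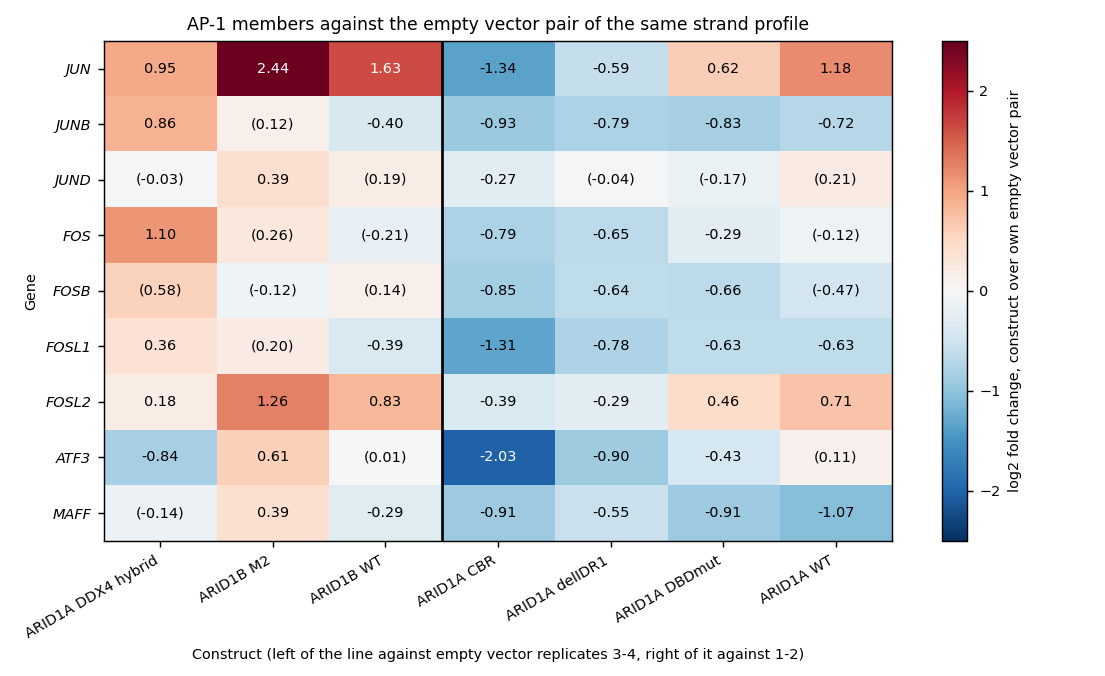
Log2 fold change of each tested member in each construct of the first 2 strand sets over the empty vector pair of the same set (red higher, blue lower). Values in parentheses were not called, and JUN ranges from -1.34 in ARID1A CBR to 2.44 in ARID1B M2.

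The ARID1A truncations did not have the JUN and FOSL2 levels of ARID1A WT. In CBR all 9 tested members were called lower than in the empty vector, beside 59.6% of all genes called and 30.8% called lower. In delIDR1 8 members were called lower, beside 56.3% of all genes called in either direction. JUND was the exception with 138 and 137 CPM in delIDR1, against 139 and 144 CPM in the empty vector. JUN had 15.1 and 15.3 CPM in CBR and 24.9 and 26.1 CPM in delIDR1, against 39.6 and 37.3 CPM in the empty vector. These are log2 fold changes of -1.34 ± 0.07 (adjusted p = 2.65e-14) in CBR and -0.59 ± 0.07 (adjusted p = 3.57e-08) in delIDR1. ATF3 had 4.796 and 4.85 CPM in CBR and 11.1 and 9.97 CPM in delIDR1, against 18.3 and 21.0 CPM in the empty vector. Its log2 fold change was -2.03 ± 0.10 in CBR (adjusted p = 2.79e-15) and -0.90 ± 0.08 in delIDR1 (adjusted p = 1.38e-09). The levels in all these libraries lay below both empty vector libraries.

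The FOS genes were lower in both truncations as well. FOSL1 had 11.8 and 11.2 CPM in CBR and 16.9 and 16.4 CPM in delIDR1, against 26.2 and 31.0 CPM in the empty vector (log2 fold changes -1.31 ± 0.09 and -0.78 ± 0.08). FOS, the partner with the strongest transactivation, had 17.7 and 15.99 CPM in CBR and 18.7 and 18.6 CPM in delIDR1, against 28.7 and 29.7 CPM in the empty vector (-0.79 ± 0.07 and -0.65 ± 0.07). FOSL2 had 79.0 and 79.1 CPM in CBR and 85.2 and 84.4 CPM in delIDR1, against 104 and 103 CPM in the empty vector (-0.39 ± 0.05 and -0.29 ± 0.05). No library of either truncation reached the empty vector for these 3 genes. JUNB (-0.93 and -0.79), MAFF (-0.91 and -0.55) and FOSB (-0.85 and -0.64) were also lower in CBR and in delIDR1. The FOSB call in delIDR1 was lost without either delIDR1 library or without empty vector replicate 2 (-0.45), and the JUND fall in CBR (-0.27 ± 0.11) was lost without CBR replicate 2 (-0.21) or either empty vector library, and by DESeq2 (adjusted p = 0.111). Against all 4 empty vector libraries only ATF3 and FOSL1 were called lower in each truncation, and FOS (0.022), JUN (0.054) and FOSL2 (0.075) changed sign in delIDR1 without being called. The share of reads on the opposite strand was 84.9 to 86.7% in the truncations, 87.3 to 87.8% in ARID1A WT, and 87.6 and 84.5% in empty vector replicates 1 and 2, and its part in these results was not tested.

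DBDmut kept a higher level of JUN and FOSL2 than the empty vector. Of the 9 tested members 2 were called higher and 6 lower, beside 59.0% of all genes. JUN had 61.9 and 56.2 CPM in DBDmut, against 39.6 and 37.3 CPM in the empty vector (0.62 ± 0.06, adjusted p = 3.34e-09). FOSL2 had 143 and 141 CPM in DBDmut, against 104 and 103 CPM in the empty vector (0.46 ± 0.05, adjusted p = 5.63e-09). MAFF (-0.91 ± 0.08), JUNB (-0.83 ± 0.10), FOSB (-0.66 ± 0.22), FOSL1 (-0.63 ± 0.08), ATF3 (-0.43 ± 0.08) and FOS (-0.29 ± 0.07) were lower in DBDmut. The FOSB call was lost without DBDmut replicate 1 (-0.61) or empty vector replicate 2 (-0.45). Against all 4 empty vector libraries the rises of JUN (1.27) and FOSL2 (0.82) were called and none of the 6 falls was.

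Set directly against ARID1A WT, all 3 mutants had less JUN, FOSL2 and ATF3. In CBR 6 members were lower and none was higher, beside 62.5% of all genes called. JUN, at 15.1 and 15.3 CPM in CBR against 88.1 and 86.1 CPM in ARID1A WT, had a log2 fold change of -2.51 ± 0.07 (adjusted p = 1.14e-20), larger in size than that of 97.2% of genes tested. ATF3 (-2.13 ± 0.10), FOSL2 (-1.10 ± 0.05), FOSL1 (-0.68 ± 0.09), FOS (-0.67 ± 0.07) and JUND (-0.48 ± 0.11) were also lower in CBR. In delIDR1 JUN (-1.77 ± 0.06), ATF3 (-1.003 ± 0.085), FOSL2 (-1.004 ± 0.048) and FOS (-0.52 ± 0.07) were lower and MAFF was higher (0.52 ± 0.09, 24.3 and 25.8 CPM in delIDR1 against 18.03 and 17.1 CPM in ARID1A WT), 5 members beside 57.8% of all genes. JUND was not called in delIDR1 (-0.25, adjusted p = 0.0507). It was called lower with strand ignored, RLE scaling, no filter on low counts, the replicate block or only the groups compared (-0.27 to -0.21). In DBDmut JUN (-0.56 ± 0.06), ATF3 (-0.54 ± 0.08), JUND (-0.38 ± 0.11) and FOSL2 (-0.26 ± 0.05) were lower, 4 members beside 19.1% of all genes. The JUND call in DBDmut was lost without DBDmut replicate 2 (-0.34) or ARID1A WT replicate 2 (-0.35). JUNB was called in none of the 3, although 4 alternatives called it lower in CBR (-0.25 to -0.19): it had 24.0 and 21.9 CPM in CBR, 26.6 and 24.2 CPM in delIDR1 and 25.0 and 24.4 CPM in DBDmut, against 25.8 and 27.5 CPM in ARID1A WT. RNA of ARID1A itself averaged 1017 ± 26.1 CPM in CBR, 589 ± 11.2 CPM in delIDR1 and 665 ± 40.6 CPM in DBDmut, against 733 ± 43.8 CPM in ARID1A WT (SD, n = 2 each), without separating construct from endogenous RNA. The part of that level in these results was not tested.

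**Figure D3:**
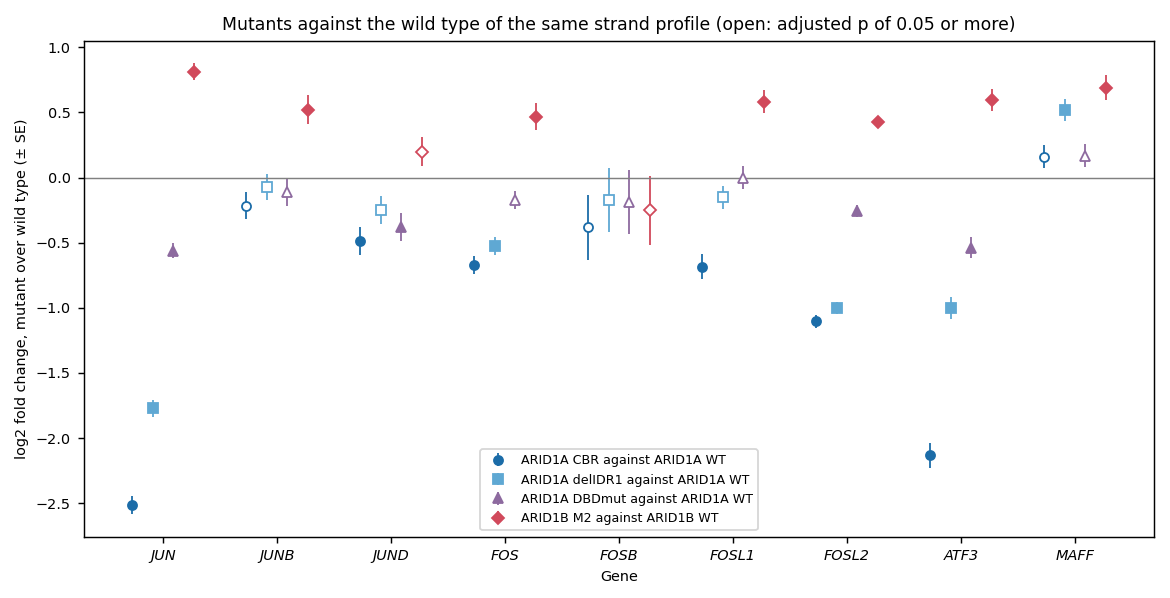
Log2 fold change (± SE) of each tested member in 3 ARID1A mutants over ARID1A WT and in ARID1B M2 over ARID1B WT, with open symbols for genes not called. JUN is the lowest point in CBR (-2.51) and delIDR1 (-1.77), and 7 members lie above 0 as filled symbols in M2.

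In the DDX4 hybrid, FOS and JUNB rose along with JUN. Of the 9 tested, FOS, JUN, JUNB, FOSL1 and FOSL2 were called higher and ATF3 lower than in empty vector replicates 3 and 4, 6 members beside 50.5% of all genes. FOS had 14.2 and 15.0 CPM in the hybrid, against 6.61 and 6.97 CPM in the empty vector (log2 fold change 1.10 ± 0.09, adjusted p = 2.44e-10). JUN had 19.5 and 18.5 CPM in the hybrid, against 9.68 and 9.98 CPM in the empty vector (0.95 ± 0.09, adjusted p = 1.67e-09). JUNB had 35.3 and 35.7 CPM in the hybrid, against 21.3 and 17.9 CPM in the empty vector (0.86 ± 0.10, adjusted p = 1.30e-07). The groups were apart for all 3 genes, and JUNB moved here in the same direction as FOS and JUN. FOSL1 had 24.6 and 23.3 CPM in the hybrid, against 19.4 and 17.9 CPM in the empty vector (0.36 ± 0.09, adjusted p = 8.77e-04). FOSL2 had 62.6 and 65.7 CPM in the hybrid, against 58.8 and 54.9 CPM in the empty vector (0.18 ± 0.05, adjusted p = 0.00589), and lost its call without hybrid replicate 2 (0.14) or empty vector replicate 4 (0.12). ATF3 had 6.09 and 7.25 CPM in the hybrid, against 11.3 and 12.5 CPM in the empty vector (-0.84 ± 0.10, adjusted p = 1.39e-07). Against all 4 empty vector libraries FOS, JUN and FOSL2 changed sign and were not called (-0.33, -0.37 and -0.33), JUNB (0.15) and FOSL1 (0.013, adjusted p = 0.955) were not called, and ATF3 (-1.255) and MAFF (-1.08) were called lower.

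ARID1B M2 had the highest JUN level of its set. Of the 9 tested members 5 were called, all higher than in the empty vector, beside 53.1% of all genes called in either direction. JUN had 53.1 and 54.1 CPM in M2, against 9.68 and 9.98 CPM in empty vector replicates 3 and 4 (log2 fold change 2.44 ± 0.08, adjusted p = 3.37e-19). FOSL2 had 135 and 137 CPM in M2, against 58.8 and 54.9 CPM in the empty vector (1.26 ± 0.05, adjusted p = 2.76e-17). ATF3 had 18.1 and 18.3 CPM in M2, against 11.3 and 12.5 CPM in the empty vector (0.61 ± 0.09, adjusted p = 1.73e-06). Each of these genes was higher in both M2 libraries than in both empty vector libraries. MAFF (0.39 ± 0.10) and JUND (0.39 ± 0.11) were also higher. FOS and FOSL1, not among the 5, were called higher as well with strand ignored, RLE scaling, a higher filter or only the groups compared (0.27 to 0.30 for FOS, 0.21 to 0.24 for FOSL1). Against all 4 empty vector libraries JUN (1.13) and FOSL2 (0.75) were called higher, ATF3 (0.19) and JUND (0.17) were not called, FOS was called lower (-1.17), and MAFF had the opposite sign (-0.55, adjusted p = 0.143).

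Compared with ARID1B WT, 7 of 9 members were called higher in M2 and none lower, beside 34.4% of all genes called and 19.1% called higher. JUN had 53.1 and 54.1 CPM in M2, against 29.2 and 31.7 CPM in ARID1B WT (0.81 ± 0.06, adjusted p = 2.17e-10). MAFF had 17.2 and 17.4 CPM in M2, against 10.05 and 11.3 CPM in ARID1B WT (0.69 ± 0.10, adjusted p = 2.81e-06). ATF3 (0.59 ± 0.08), FOSL1 (0.58 ± 0.09), JUNB (0.52 ± 0.11), FOS (0.47 ± 0.10) and FOSL2 (0.42 ± 0.05) were higher as well. Of these, JUNB had the widest spread in M2 (18.7 and 23.9 CPM), with both values above ARID1B WT (14.6 and 15.0 CPM). RNA of ARID1B averaged 4250 ± 96.2 CPM in M2 and 3597 ± 225 CPM in ARID1B WT (SD, n = 2 each), and its part in the difference was not tested.

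The constructs of set 3 have no empty vector of their own, and construct and strand set cannot be told apart against the empty vector. Against the mean of both empty vector pairs no member was called higher in any of them. In AQGscram 9 of 9 members were called lower (46.6% of all genes called in either direction), in 42YS 6 (52.1%), in A457_G461del 7 (55.8%), in Block13del 7 (54.6%) and in Block9del 7 (54.8%). These counts rest on averaging pairs that differ. With empty vector replicates 1 and 2 alone as the control, all 9 members were called lower in each of these constructs. The share of all genes called with 1 pair alone is not given here. With replicates 3 and 4 alone, 3 members were called lower and none higher in AQGscram, 3 were higher and 1 lower in 42YS, and 3 were higher and 2 lower in A457_G461del. Over that pair FOS was called higher in 42YS (1.02 ± 0.09), Block13del (0.65 ± 0.10), Block9del (0.51 ± 0.10) and A457_G461del (0.33 ± 0.10). Over replicates 1 and 2 FOS was called lower in each (-1.08, -1.45, -1.59 and -1.77). FOSL2 in A457_G461del was higher over replicates 3 and 4 (0.43 ± 0.05) and lower over replicates 1 and 2 (-0.43 ± 0.05). JUN was called higher over replicates 3 and 4 in A457_G461del (1.11 ± 0.09), 42YS (0.65 ± 0.09), Block13del (0.63 ± 0.09) and Block9del (0.56 ± 0.09). Over replicates 1 and 2 JUN was called lower in each (-0.86, -1.31, -1.34 and -1.41). Block13del and Block9del also had FOSL1 called higher over replicates 3 and 4, and FOSL2, JUND and ATF3 lower. MAFF was called lower over that pair in Block13del (-0.28 ± 0.10) but not in Block9del. JUN had 14.5 and 16.5 CPM in 42YS, 11.4 and 11.7 CPM in AQGscram, 22.0 and 20.4 CPM in A457_G461del, 14.9 and 15.4 CPM in Block13del and 13.96 and 15.0 CPM in Block9del. These values lay above empty vector replicates 3 and 4 (9.68 and 9.98 CPM) and below replicates 1 and 2 (39.6 and 37.3 CPM).

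Within set 3, 42YS had more of 5 members than AQGscram, beside 38.1% of all genes called and 19.3% called higher. FOS had 13.7 and 13.96 CPM in 42YS, against 7.93 and 8.38 CPM in AQGscram (0.76 ± 0.08, adjusted p = 1.49e-07). JUN (0.43 ± 0.08), JUNB (0.37 ± 0.10), FOSL1 (0.36 ± 0.09) and FOSL2 (0.29 ± 0.05) were also higher, and in a fit of only these 4 libraries FOS alone was called. The JUNB call was lost without AQGscram replicate 1 (0.23) or 42YS replicate 2 (0.33). JUND had 81.0 and 83.6 CPM in 42YS, between the AQGscram values of 71.2 and 101 CPM, and was called lower without AQGscram replicate 1 (-0.30, adjusted p = 0.00549). ARID1A RNA averaged 374 ± 1.32 CPM in 42YS and 247 ± 52.6 CPM in AQGscram (SD, n = 2 each), the second not above the 284 and 293 CPM averages of the empty vector pairs.

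Among the ARID1B deletions of set 3, A457_G461del had the most FOSL2 and JUN. FOSL2 had 78.2 and 75.2 CPM in A457_G461del, against 47.3 and 49.7 CPM in Block13del and 41.9 and 40.9 CPM in Block9del. Its log2 fold change was 0.66 ± 0.05 over Block13del (adjusted p = 4.17e-10) and 0.89 ± 0.05 over Block9del (adjusted p = 3.42e-13). JUN was higher by 0.48 ± 0.08 over Block13del (adjusted p = 4.89e-05) and by 0.55 ± 0.08 over Block9del (adjusted p = 3.02e-06), with no overlap between the groups. FOSL1 had 18.3 and 16.6 CPM in A457_G461del, against 23.1 and 24.2 CPM in Block13del and 21.6 and 24.2 CPM in Block9del, and JUNB 16.5 and 16.7 CPM against 20.2 and 23.2 CPM and 21.2 and 23.8 CPM. FOSL1 was lower than in either of them (-0.44 ± 0.08 and -0.39 ± 0.08), and so was JUNB (-0.39 ± 0.11 and -0.44 ± 0.10). In all, 6 members were called over Block13del, beside 20.0% of all genes, and 6 over Block9del, beside 31.6%.

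Smaller differences completed these counts. MAFF was higher in A457_G461del over Block13del (0.34 ± 0.10) and Block9del (0.27 ± 0.09), FOS was lower over Block13del (-0.32 ± 0.09) and ATF3 higher over Block9del (0.32 ± 0.10). Over Block13del, the calls of FOS, JUNB and MAFF were lost when A457_G461del replicate 1 was left out (adjusted p = 0.120, 0.0648 and 0.0581), which left 3 members. Leaving out A457_G461del replicate 2 ended the calls of JUNB and MAFF, Block13del replicate 2 those of FOS and JUNB, and Block13del replicate 1 that of MAFF. Over Block9del, ATF3 lost its call without any 1 of the 4 libraries, and MAFF without Block9del replicate 1 or either A457_G461del library. Block13del and Block9del differed in FOSL2 alone (0.23 ± 0.05, adjusted p = 0.0220), 1 of 9 members beside 1.25% of all genes, and that call was lost without Block13del replicate 2 (0.19) or either Block9del library (0.25 and 0.21). ARID1B RNA averaged 2236 ± 32.9 CPM in A457_G461del, 883 ± 7.14 CPM in Block13del and 344 ± 0.28 CPM in Block9del (SD, n = 2 each), and its part in these results was not tested.

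The empty vector pairs themselves differed in the whole family. All 9 tested members were called lower in replicates 3 and 4 than in replicates 1 and 2, beside 58.5% of all genes called and 29.7% called lower. FOS had 6.61 and 6.97 CPM in replicates 3 and 4, against 28.7 and 29.7 CPM in replicates 1 and 2 (log2 fold change -2.10 ± 0.09, adjusted p = 1.25e-16). JUN had 9.68 and 9.98 CPM in replicates 3 and 4, against 39.6 and 37.3 CPM in replicates 1 and 2 (-1.97 ± 0.08, adjusted p = 2.12e-16). MAFF (-1.48 ± 0.09), JUNB (-1.17 ± 0.10), FOSB (-0.93 ± 0.25), FOSL2 (-0.87 ± 0.05), ATF3 (-0.72 ± 0.09), FOSL1 (-0.62 ± 0.09) and JUND (-0.42 ± 0.11) followed, and the FOSB call was lost without replicate 3 (-0.65, adjusted p = 0.0592). For JUN this difference between libraries of 1 label was larger in size than the folds of ARID1A WT (1.18) and ARID1B WT (1.63) over their own pairs. The same held for FOSL2 (0.71 and 0.83), JUNB (-0.72 and -0.40) and MAFF (-1.07 and -0.29). For FOSL1 it was larger than the fold of ARID1B WT (-0.39) but not that of ARID1A WT (-0.63). Of 21 immediate early genes outside the family, 18 were lower in replicates 3 and 4, 3 were higher and the median log2 fold change was -0.97, beside -0.02 over all genes. Of the 21, 3 averaged under 1 CPM in replicates 3 and 4 and may have passed the filter through groups where they are high. EGR1, an immediate early gene induced through the ERK kinases, averaged 54.9 CPM in replicates 3 and 4 and 256 CPM in replicates 1 and 2. The labels give no date or batch for these libraries, so strand set and any other difference between the pairs cannot be told apart.

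Of 26 AP-1 target genes found, 15 were tested and 11 did not pass the filter on low counts. With ARID1A WT 10 of the 15 were called higher and 4 lower, beside 60.7% of all genes called, and with ARID1B WT 8 were higher and 3 lower, beside 52.0%. In each empty vector pair 5 tested target genes averaged under 1 CPM, and of these 5 were called higher with ARID1A WT and 4 with ARID1B WT. Such genes may have passed the filter through groups where they are high, so these counts do not stand for the whole list. PLAU and CD44, given below, are among the low genes in both pairs. PLAU, the urokinase gene, averaged 43.7 ± 0.22 CPM in ARID1A WT and 0.99 ± 0.19 CPM in its empty vector pair, and 21.3 ± 1.12 CPM in ARID1B WT and 0.54 ± 0.02 CPM in its pair (SD, n = 2 each). Cyclin D1 (CCND1) averaged 46.8 ± 1.12 CPM in ARID1A WT and 1.964 ± 0.24 CPM in its pair, a log2 fold change of 4.57 ± 0.11, and rose by 4.35 ± 0.13 with ARID1B WT. The EGF-family ligand HBEGF was higher by 2.33 ± 0.09 with ARID1A WT and by 1.58 ± 0.10 with ARID1B WT. The hyaluronan receptor CD44 averaged 9.73 CPM in ARID1A WT, with 0 reads in its pair, and 15.1 CPM in ARID1B WT, with 1 read in its pair. Against ARID1A WT, 12 of the 15 were lower and 1 higher in CBR (62.5% of all genes called), 10 were lower and 2 higher in delIDR1 (57.8%), and 6 were lower and none higher in DBDmut (19.1%). In M2 against ARID1B WT 4 were higher and 4 lower (34.4%). The genes that may have passed the filter through groups where they are high are among the 15 in these mutant comparisons too. Their counts carry the same limit. A target list of this kind holds genes that other factors also control.

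In the list of kinases and serum response factors, which act upstream of FOS and JUN, 11 of 21 genes were higher and 4 lower with ARID1A WT (60.7% of all genes called), and 12 higher and 2 lower with ARID1B WT (52.0%). MKL1, a coactivator of serum response factor, had a log2 fold change of 1.65 ± 0.06 with ARID1A WT and 1.39 ± 0.06 with ARID1B WT. RPS6KA1, which encodes an ERK-activated kinase, had 1.17 ± 0.06 and 0.94 ± 0.06 with the same constructs. With ARID1A WT the ERK-responsive factor ELK1 was lower (-0.72 ± 0.06) and MAP3K1, a kinase upstream of JNK, higher (0.69 ± 0.09). With ARID1B WT the ERK gene MAPK3 (0.47 ± 0.08) and RPS6KA3 (0.41 ± 0.09) were higher. Of 14 tested genes among 17 other AP-1-like zipper factors, 4 were higher and 6 lower with ARID1A WT, and 5 higher and 2 lower with ARID1B WT, beside the same 60.7% and 52.0% of all genes. Of these 5, 1 averaged under 1 CPM in the empty vector pair and may have passed the filter through groups where it is high. The large MAF gene MAFA was higher with ARID1A WT (1.19 ± 0.21) and with ARID1B WT (0.74 ± 0.23). NFE2L1, a stress factor of the proteasome genes, was lower with ARID1A WT (-0.88 ± 0.04), as was JDP2, a repressor that pairs with JUN (-0.49 ± 0.08), and BACH2 was higher (0.53 ± 0.15). With ARID1B WT, MAFK (0.45 ± 0.12) and BACH1 (0.32 ± 0.10) were higher.

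Immediate early genes outside the family moved in both directions. With ARID1A WT 6 of 21 were higher and 12 lower (60.7% of all genes called), and with ARID1B WT 9 were higher and 7 lower (52.0%). Of these 9, 2 averaged under 1 CPM in the empty vector pair, as did 3 of all 21. Such genes may have passed the filter through groups where they are high, so the counts do not stand for the whole list. The matricellular gene CYR61 was higher with ARID1A WT (1.59 ± 0.05) and with ARID1B WT (2.32 ± 0.06), as was the ERK phosphatase gene DUSP5 (2.89 ± 0.08 and 2.31 ± 0.09). KLF4 (-2.02 ± 0.18) and EGR2 (-1.60 ± 0.21) were lower with ARID1A WT, and CTGF (3.57 ± 0.16) and BTG2 (1.36 ± 0.10) were higher with ARID1B WT. In the DDX4 hybrid 12 were higher and 4 lower (50.5% of all genes called), and in M2 against ARID1B WT 9 were higher and 2 lower (34.4%). The low genes are among the 21 in these counts too, which carry the same limit. Of 5 listed markers of fibroblast and mural cells, only PDGFRB and PDGFRA averaged higher with both wild types than in their empty vector pairs. The summed level of the 5 genes was higher also in CBR and delIDR1, where JUN and FOSL2 were lower. This sum was 35.0 to 38.0 CPM in ARID1A WT and 1.36 to 1.57 CPM in its empty vector pair, and 20.8 to 20.9 CPM in ARID1B WT and 1.83 to 1.95 CPM in its pair. It was 18.3 to 18.9 CPM in delIDR1, 20.9 to 21.6 CPM in DBDmut, 6.71 to 6.73 CPM in CBR, 21.0 to 23.2 CPM in M2 and 6.19 to 6.59 CPM in the hybrid. PDGFRB made up most of it (33.9 CPM in ARID1A WT, 1.35 CPM in its pair), PDGFRA the rest, and the defining markers DCN, LUM and THY1 never passed 0.0880 CPM in any library. The part of these genes in the JUN and FOSL2 results was not tested.

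Across the 28 libraries, JUN and FOSL2 varied together and JUNB did not vary with them. After centring within each strand set (log2 of CPM + 0.5), Pearson's r was 0.93 between JUN and FOSL2, 0.85 between FOS and JUNB, 0.82 between FOSL1 and JUNB and 0.74 between FOS and FOSL1, but -0.02 between JUN and JUNB and -0.24 between FOSL2 and JUNB. ATF3 had r = 0.63 with JUN and 0.59 with FOSL2, and JUND had 0.63 with JUN and 0.61 with FOSL2. These are descriptions over libraries that come in pairs of 1 construct and share control pairs. The order of JUN levels by group mean ran from ARID1A WT (87.1 CPM) through DBDmut (59.1), M2 (53.6), empty vector replicates 1 and 2 (38.4), ARID1B WT (30.4), delIDR1 (25.5), A457_G461del (21.2), the DDX4 hybrid (19.0), 42YS (15.5), CBR (15.2), Block13del (15.2), Block9del (14.5) and AQGscram (11.5) to empty vector replicates 3 and 4 (9.83). Neighbours from 42YS to Block9del overlapped in their libraries.

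**Figure D4:**
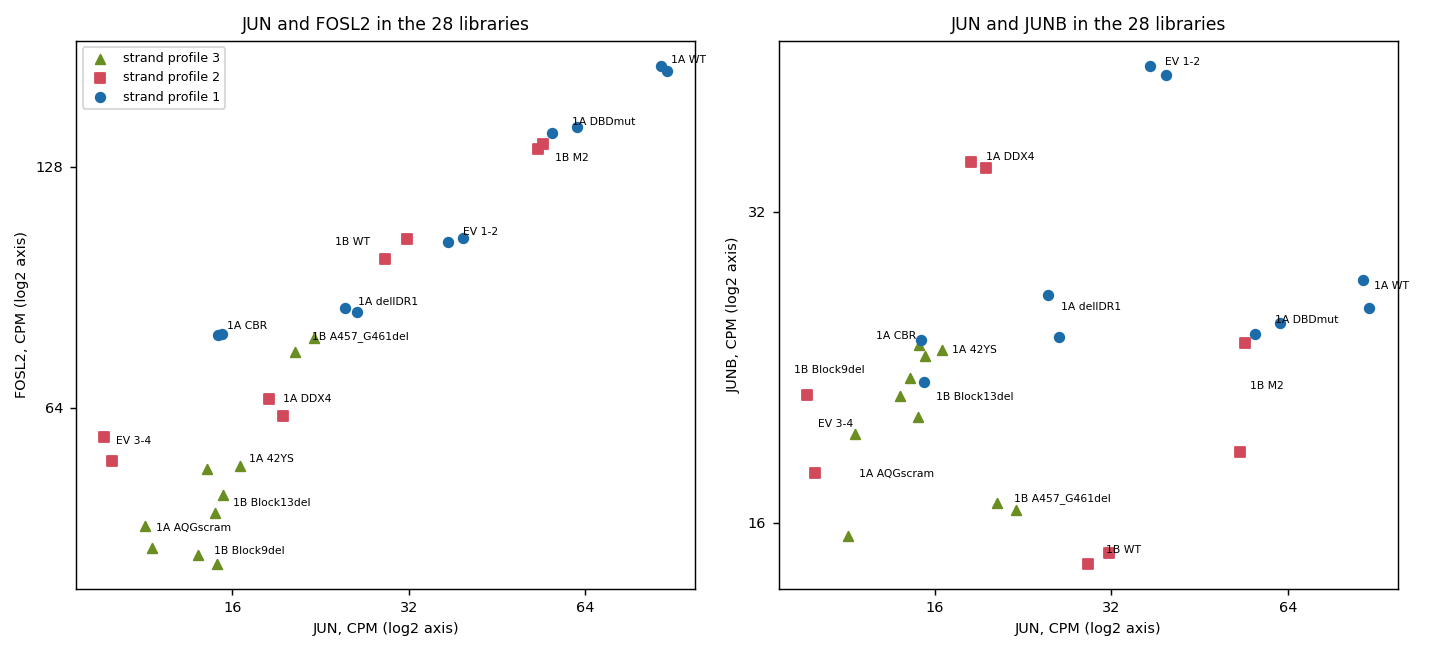
JUN against FOSL2 (left) and JUN against JUNB (right) in the 28 libraries, in CPM on log2 axes, with colour and shape for the strand set. The left panel runs along a diagonal from EV 3-4 and set 3 to ARID1A WT (r = 0.93 after centring), whereas the right panel shows no such line (r = -0.02).

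The genes most like each member in level over the 28 libraries were found among 11071 genes with the same centring. For JUN they were CTGF (r = 0.96), a matricellular gene, and DUSP1 (0.95), a MAP kinase phosphatase. For FOSL2 they were UBL3 (0.96) and RHOBTB3 (0.95). JUNB was closest to EGR1 (0.89) and KAZALD1 (0.88), FOS to MDM2 (0.88) and FOXN2 (0.88), and FOSL1 to GSPT1 (0.91) and GNPNAT1 (0.90). JUND was closest to KLF2 (0.86) and FADS3 (0.84), ATF3 to GABARAPL1 (0.93) and NPC1 (0.91), and MAFF to ACADVL (0.87) and CCDC50 (0.84). FOSB lay below the level set for this comparison.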

How the data were processed

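Polyadenylated RNA of 28 libraries was analysed. The submitters' processing notes name bcl2fastq, STAR 2.5.2b, Bowtie2 2.29 and hg19; the gene annotation is not given in the sources used here. The deposited files hold raw counts per gene symbol, without normalization, in 3 columns, of which the opposite-strand one was taken. The 4 total lines that name no gene (21.6 to 36.3% of each library) stayed out.

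A single edgeR 4.0.16 quasi-likelihood fit (R 4.3.3, limma 3.58.1) covered all libraries in 14 cells, the empty vector being split by strand set (sets divided at 92 and 98% of reads on the opposite strand). It used filterByExpr, TMM scaling and Benjamini-Hochberg adjustment over 14220 genes, two-sided. The SE is the log2 fold change divided by the root of F, and intervals are 1.96 SE. The fit was tested on simulated data. Alternatives were DESeq2 1.42.0, RLE scaling, other filters, unstranded counts, a replicate block, other controls, only the groups compared and leaving out each library. Differences of replicate 1 minus replicate 2 in log2 CPM correlated between groups of a strand set at r = -0.05 to 0.12. Numbers were not used to pair libraries in the main fit, and these values do not show whether libraries were paired.

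All members were named, with up to 4 genes per list by size (1 of these is not reported here) and 2 like genes per member. Members and lists were chosen with earlier results of these data known. Depth, at 16.6 to 27.9 M reads, limits genes at few CPM.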

Additional observations from a re-analysis of the deposited data

Results flagged for a closer look

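Responses to constructs of different strand sets, each over its own empty vector pair, were compared as differences of log2 fold changes (edgeR's quasi-likelihood test, Benjamini-Hochberg adjusted over all genes). They rest on 2 libraries in each of 4 groups and include the difference between the empty vector pairs.

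The ARID1A WT response differed from the ARID1B WT response in 2 of 9 members, beside 41.6% of all genes: JUN by -0.45 ± 0.11 (adjusted p = 0.00129) and MAFF by -0.78 ± 0.13 (adjusted p = 3.85e-05). JUN rose in both, so the JUN response was smaller with ARID1A WT, and MAFF fell further with it. The levels stood the other way: JUN averaged 87.1 CPM in ARID1A WT and 30.4 CPM in ARID1B WT, and MAFF 17.5 CPM in ARID1A WT and 10.7 CPM in ARID1B WT.

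The DDX4 hybrid response differed from the ARID1A WT response in 7 of 9 members, beside 50.5% of all genes. It was higher for JUNB by 1.58 ± 0.14, FOS by 1.22 ± 0.11, FOSB by 1.06 ± 0.33, FOSL1 by 0.99 ± 0.12 and MAFF by 0.94 ± 0.13. The levels stood the other way for FOS, at 14.6 CPM in the hybrid and 26.8 CPM in ARID1A WT, and for MAFF, at 11.98 CPM in the hybrid and 17.5 CPM in ARID1A WT. For ATF3 the difference was -0.94 ± 0.13 and for FOSL2 -0.54 ± 0.07. The FOSB difference was lost without empty vector replicate 2 (0.84) or 3 (0.78) and by DESeq2. JUN was not among them (adjusted p = 0.0828), which does not show equal responses.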

How the results depend on the processing

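Of 1324 alternatives run on 112 member folds (those called within a set or between responses, and all with the wild types), 1214 kept direction and side of the threshold, 81 lost the call, 10 gained one and 19 changed sign. Over all comparisons 67 folds were not called, and 36 of these gained a call under at least 1 of their alternatives (74 of 819 runs, 9 with the sign turned). The count of called members moved by over 1.5 times in 14 of 290 cases, and for the causes that follow no test was made. With all 4 empty vector libraries as control, 2 members were called in CBR, 2 in delIDR1, 2 in DBDmut, 2 in the DDX4 hybrid and 3 in M2. Apart from the DBDmut total below, the number of all genes called with that control is not given. These member counts are therefore descriptions only. That control turned the sign of FOS in ARID1A WT (0.55), delIDR1 (0.022), DBDmut (0.38) and the hybrid (-0.33), of FOSL2 in delIDR1 (0.075) and the hybrid (-0.33), and of JUN in delIDR1 (0.054) and the hybrid (-0.37). It also turned FOSB (-0.43), JUND (-0.032) and ATF3 (-0.40) in ARID1B WT and MAFF in M2 (-0.55), and called 4995 genes in DBDmut in place of 8392. Compared directly across sets, without the empty vector, ARID1A WT and ARID1B WT differed in 8 members, with JUN at 1.51 and MAFF at 0.71, and the hybrid and ARID1A WT in FOS by -0.88 and MAFF by -0.55. The share of all genes called in these direct comparisons is not given, so the 8 members are a description only. With only the groups compared, 42YS against AQGscram had 1 member and 935 genes in place of 5422, and AQGscram against the empty vector pairs 4011 genes in place of 6621. Block13del against Block9del had 0 members without the low-count filter and 0 with only those groups (79 genes in place of 178). AQGscram had 3 members against empty vector replicates 3 and 4 alone, again without the share over all genes.

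Leaving out single libraries gave 3 to 5 members for A457_G461del against Block13del (1682 to 2160 genes in place of 2850) and 0 to 1 for Block13del against Block9del. DBDmut against ARID1A WT then had 1661 to 2266 genes in place of 2711. Calls were gained by FOSB in the hybrid without empty vector replicate 4 (0.98), JUNB in M2 without M2 replicate 1 (0.29), FOS in DBDmut against ARID1A WT without DBDmut replicate 2 (-0.24), FOSB in 42YS against AQGscram without 42YS replicate 1 (0.79) and JUND in A457_G461del against Block9del without Block9del replicate 2 (0.43). In ARID1B WT, FOSB ran from -0.14 to 0.53 and ATF3 from -0.0595 to 0.0892. With the replicate block, 6 members were called in ARID1A WT, JUND being added (0.21, adjusted p = 0.0316). JUNB in CBR against ARID1A WT (-0.22), JUND in delIDR1 against ARID1A WT (-0.25) and FOSB in 42YS against AQGscram (0.61) gained a call, and no call was lost. RLE scaling and dropping the filter also called JUND in ARID1A WT. Low counts limit FOSB and leave BATF3 untested.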
